A study of Mus musculus with 5 samples.

Results

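The genes described here copy the genome and pull its copies apart: the helicase, clamp and licensing factors of DNA replication, and the kinases, kinetochore proteins and kinesins of mitosis. They were chosen by name, as probe sets whose only annotated symbol is an Mcm, Orc, Rfc, Cenp, mitotic kinesin, cyclin A, B or E, Bub1 or Aurora gene, a Cdc gene of these steps, or 1 of 10 further genes such as Mki67, Pcna and Top2a. In the table of 10361 probe sets, 66 fitted, each for a different gene. Of these, 22 were counted with S phase, the stretch of the cell cycle in which DNA is copied, and 41 with M phase, when the chromosomes are segregated. The other 3 are Ccna2, whose cyclin acts in both S phase and G2, Mki67, a protein of all cycling cells, and Cenpv, for centromere protein V, which was put in neither phase here. The S phase set includes licensing genes, which act from G1, and Mcm8 and Mcm9 of DNA repair. The M phase set takes in every Cenp gene here except Cenpv, by name. RefSeq holds 79 protein-coding genes that fit the same name rule, and 13 of them were not analysed here, among them Ccnb1, Ccne1, Cdc45, Orc1, Orc2 and Orc6. Cdc73, also among the 13, fits only because its name begins with Cdc7.

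The samples were sciatic nerves of mouse pups 2 days after birth, pooled by genotype with 12 nerves in a pool. Ebf2-/- knockout nerves (KO) made up pools 2 and 4, and Ebf2+/+ wild-type nerves (WT) pools 1, 9 and 11, all on a C57Bl6N background and bred from heterozygous parents. The knockout is constitutive, so Ebf2 was missing from every cell type, and the labels do not say how many animals or litters made up a pool. Each pool was measured on 1 Affymetrix whole-transcript array as biotin-labelled cDNA, and all values are log2 levels from RMA, which corrects background, normalises the arrays and combines the probes of a probe set. Ebf2 belongs to the early B cell factor transcription factors, and the comparison asks how its loss alters RNA levels in the newborn nerve. Ebf2 itself was at 9.25 and 8.74 in KO pools 2 and 4, against 11.55, 11.14 and 11.40 in WT pools 1, 9 and 11 (log2 fold change -2.37, SE 0.19, limma adjusted p = 4.97e-07), so every array stood on the side of its label.

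Replication is prepared in G1, when the origin recognition complex and Cdc6 load the Mcm2 to Mcm7 ring onto DNA. It takes place in S phase with the clamp Pcna and the nucleotide-making enzymes. Transcription of many, not all, of these genes is driven by E2F factors once the retinoblastoma proteins release them, whereas mitotic genes are switched on later, in G2, through the CHR element and CCAAT boxes. At this age Schwann cells, fibroblasts and vascular cells of the nerve are still dividing. In bulk RNA, fewer cycling cells and less of a transcript per cycling cell cannot be told apart, and the cell type that carries a transcript cannot be read from the array.

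In the promoters, CHR elements were more frequent among the mitosis genes and E2F motifs among the replication genes, while CCAAT boxes were frequent in both. RefSeq windows running from 250 bases before to 50 after the annotated start (GRCm38.p6) were found for 59 of the 66 genes. Among M phase genes with a window, 23 of 37 held a CHR, written here as TTTGAA or TTCGAA (62.2%), and 27 held a CCAAT box, written CCAAT (73.0%). The CHR stood in 4 of 20 S phase genes (20%) and the CCAAT box in 13 (65.0%), against 18.2% and 43.5% of the 7397 named genes of the arrays with a window. The E2F motif, taken as TTTCCCGC, TTTCGCGC, TTTGCCGC or TTTGGCGC, stood in 9 of 20 S phase genes (45%) and 4 of 37 M phase genes (10.8%), against 3.88% of the named genes. Over all 27025 genes with a window the shares were 2.60% for E2F, 21.7% for the CHR and 41.1% for the CCAAT box. Both strands were searched, and different motifs overlapped in 2 of the 66 windows of these genes. Median GC content was 62.7% in S phase windows, 58.8% in M phase windows and 58.7% in the windows of the named genes. These matches are letters in a window and do not show binding.

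**Figure D1:**
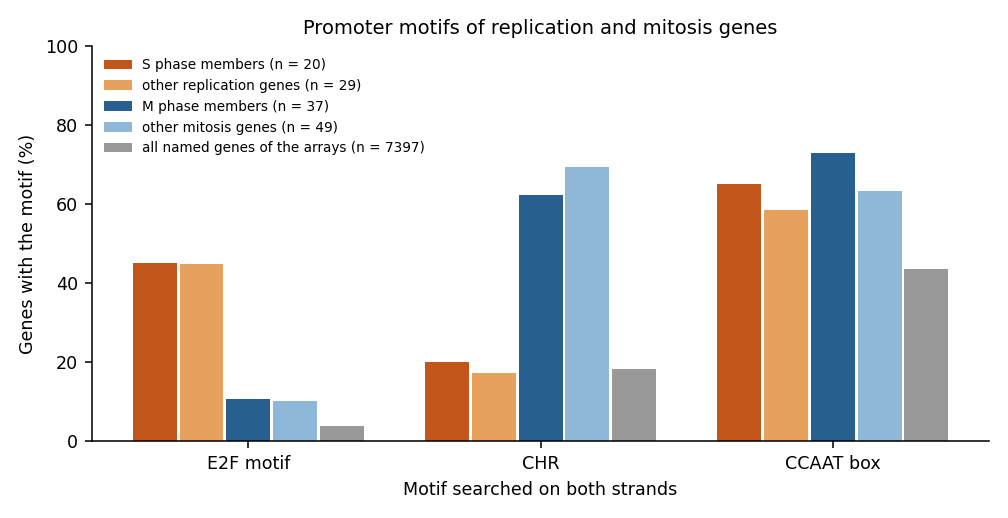
Share of genes (percent, vertical axis from 0) whose promoter window holds an E2F motif, a CHR or a CCAAT box on either strand, for S phase members, other replication genes, M phase members, other mitosis genes and all named genes of the arrays. The E2F motif stood in 45% of S phase members and the CHR in 62.2% of M phase members, against 3.88% and 18.2% of the named genes.

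Promoters of 3 M phase genes show this layout, taken as those with the highest mean array signal among the genes that have a motif and a printable window. Capitals mark the CHR (TTTGAA, or TTCAAA on the other strand) and the CCAAT box (CCAAT, or ATTGG on the other strand). Ccnb2, for cyclin B2, held 3 CCAAT boxes between 2 CHRs. Kif11, for the motor that pushes spindle poles apart, and Plk1, for Polo-like kinase 1, held a single CCAAT box and a single CHR each.
Ccnb2, chr9:70421505-70421804, minus strand: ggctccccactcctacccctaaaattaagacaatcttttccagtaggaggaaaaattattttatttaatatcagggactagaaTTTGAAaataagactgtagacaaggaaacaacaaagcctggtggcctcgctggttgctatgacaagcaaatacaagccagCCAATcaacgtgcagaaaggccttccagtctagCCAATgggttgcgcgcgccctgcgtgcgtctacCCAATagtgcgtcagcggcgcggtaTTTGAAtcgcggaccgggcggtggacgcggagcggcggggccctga
Kif11, chr19:37376132-37376431, plus strand: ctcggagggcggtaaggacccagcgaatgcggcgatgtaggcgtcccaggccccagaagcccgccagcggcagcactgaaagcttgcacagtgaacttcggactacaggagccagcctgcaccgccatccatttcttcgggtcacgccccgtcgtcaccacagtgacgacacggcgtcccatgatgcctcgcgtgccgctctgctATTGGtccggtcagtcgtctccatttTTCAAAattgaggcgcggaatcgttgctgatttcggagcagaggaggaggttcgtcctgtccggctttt
Plk1, chr7:122159185-122159484, plus strand: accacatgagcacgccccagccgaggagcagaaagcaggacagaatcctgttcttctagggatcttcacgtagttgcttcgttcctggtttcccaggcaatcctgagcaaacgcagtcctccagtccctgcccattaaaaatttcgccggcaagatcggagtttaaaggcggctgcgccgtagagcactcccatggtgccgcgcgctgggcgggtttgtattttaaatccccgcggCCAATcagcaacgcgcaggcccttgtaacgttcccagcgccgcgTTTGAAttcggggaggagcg

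The 3 S phase genes chosen in the same way were Pcna, Orc3 and Mcm2. Capitals mark the CCAAT box in Pcna, the E2F motif in Orc3, and a CCAAT box and a CHR in Mcm2.
Pcna, chr2:132253131-132253430, minus strand: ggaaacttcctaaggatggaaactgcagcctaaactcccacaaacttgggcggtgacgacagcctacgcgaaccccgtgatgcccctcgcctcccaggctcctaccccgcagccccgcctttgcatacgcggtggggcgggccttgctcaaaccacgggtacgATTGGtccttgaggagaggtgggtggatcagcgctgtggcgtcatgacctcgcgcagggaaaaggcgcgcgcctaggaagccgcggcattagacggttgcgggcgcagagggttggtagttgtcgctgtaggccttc
Orc3, chr4:34614893-34615192, minus strand: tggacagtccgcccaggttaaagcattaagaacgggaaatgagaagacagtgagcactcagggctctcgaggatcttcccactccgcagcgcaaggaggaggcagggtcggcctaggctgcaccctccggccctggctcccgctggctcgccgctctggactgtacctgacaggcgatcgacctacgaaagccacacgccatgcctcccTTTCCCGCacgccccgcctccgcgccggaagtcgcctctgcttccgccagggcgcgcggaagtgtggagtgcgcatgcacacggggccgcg
Mcm2, chr6:88898731-88899030, minus strand: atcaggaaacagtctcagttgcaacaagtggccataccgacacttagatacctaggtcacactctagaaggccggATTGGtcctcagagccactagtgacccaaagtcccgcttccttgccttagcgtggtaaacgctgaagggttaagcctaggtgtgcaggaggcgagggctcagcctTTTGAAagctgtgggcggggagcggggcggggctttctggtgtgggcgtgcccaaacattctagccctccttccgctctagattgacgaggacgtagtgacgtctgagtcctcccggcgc

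Of the 6 genes of the Mcm2 to Mcm7 ring, 4 held the E2F motif, Mcm2 did not, and Mcm4 had no window. The stretches with the E2F motif in capitals (GCGGGAAA and GCGCCAAA are matches on the other strand, Mcm3 holds 2 matches, and in Mcm5 2 matches overlap) are shown because these genes were ordered alike across the pools, as given further on. They were chosen after the matches were seen. Among S phase genes with a window, KO pool 4 minus KO pool 2 ran from -0.35 to 0.56 in the 9 with the motif. It ran from -0.93 to 0.61 in the 11 without it, so the ranges overlapped.
Mcm3, chr1:20820266-20820313, minus strand: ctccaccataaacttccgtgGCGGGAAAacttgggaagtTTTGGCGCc
Mcm5, chr8:75109340-75109387, plus strand: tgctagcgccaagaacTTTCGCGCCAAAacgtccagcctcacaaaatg
Mcm6, chr1:128359725-128359772, minus strand: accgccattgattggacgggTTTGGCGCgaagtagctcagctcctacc
Mcm7, chr5:138171840-138171887, minus strand: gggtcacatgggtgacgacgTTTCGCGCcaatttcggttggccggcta

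Most of the genes lay higher in the KO pools than in the mean of the WT pools, and none passed the test. Of the 66 genes, 57 had a log2 fold change (KO minus WT) above 0, against 49.8% of all probe sets. At an adjusted p below 0.05 in limma, with adjustment over all probe sets, 0 of 66 were called higher and 0 lower, where 0.347% of all probe sets were called higher and 0.328% lower. Without adjustment, at p below 0.05, 26 genes lay higher and 0 lower, against 7.14% and 7.17% of all probe sets. Counted in either direction, this depended on single pools: there were 8 without KO pool 2 (22.3% of all probe sets) and 0 without KO pool 4 (3.16%), and 39 without WT pool 1 (15.9%), 2 without WT pool 9 (4.14%) and 3 without WT pool 11 (8.22%). After quantile normalisation there were 14 (13.2%). An ordinary linear model without moderation called 0 as well, with Mcm8, lower in KO, as the 1 gene at unadjusted p below 0.05, against 4.81% of all probe sets. With a trended, robust prior limma called 13 of the 66 genes, where 5.54% of all probe sets were called. When only probe sets above the median level were fitted, 50 of the genes remained and 3 were called (Kif18b, Cenpq and Rrm2), a share near the 5.54% of all probe sets fitted. With 1 probe set per gene 0 were called, against 1.73% of all. Both KO pools lay above all WT pools in 20 of the 66 genes and below them in 1, against 17.5% and 13.3% of all probe sets. The difference rested on which WT pools were compared: 38 of the 66 genes had a KO mean above WT pool 1 and 28 below it, against 50.8% and 48.8% of all probe sets. P-values measure the spread between these pools only, which may be technical. In limma the spread used for a gene came largely from a prior over all probe sets. That prior had 17.4 degrees of freedom, beside 3 from the gene itself. The table holds no probe set with little spread, so the counts describe the genes in it and not all genes.

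**Figure D2:**
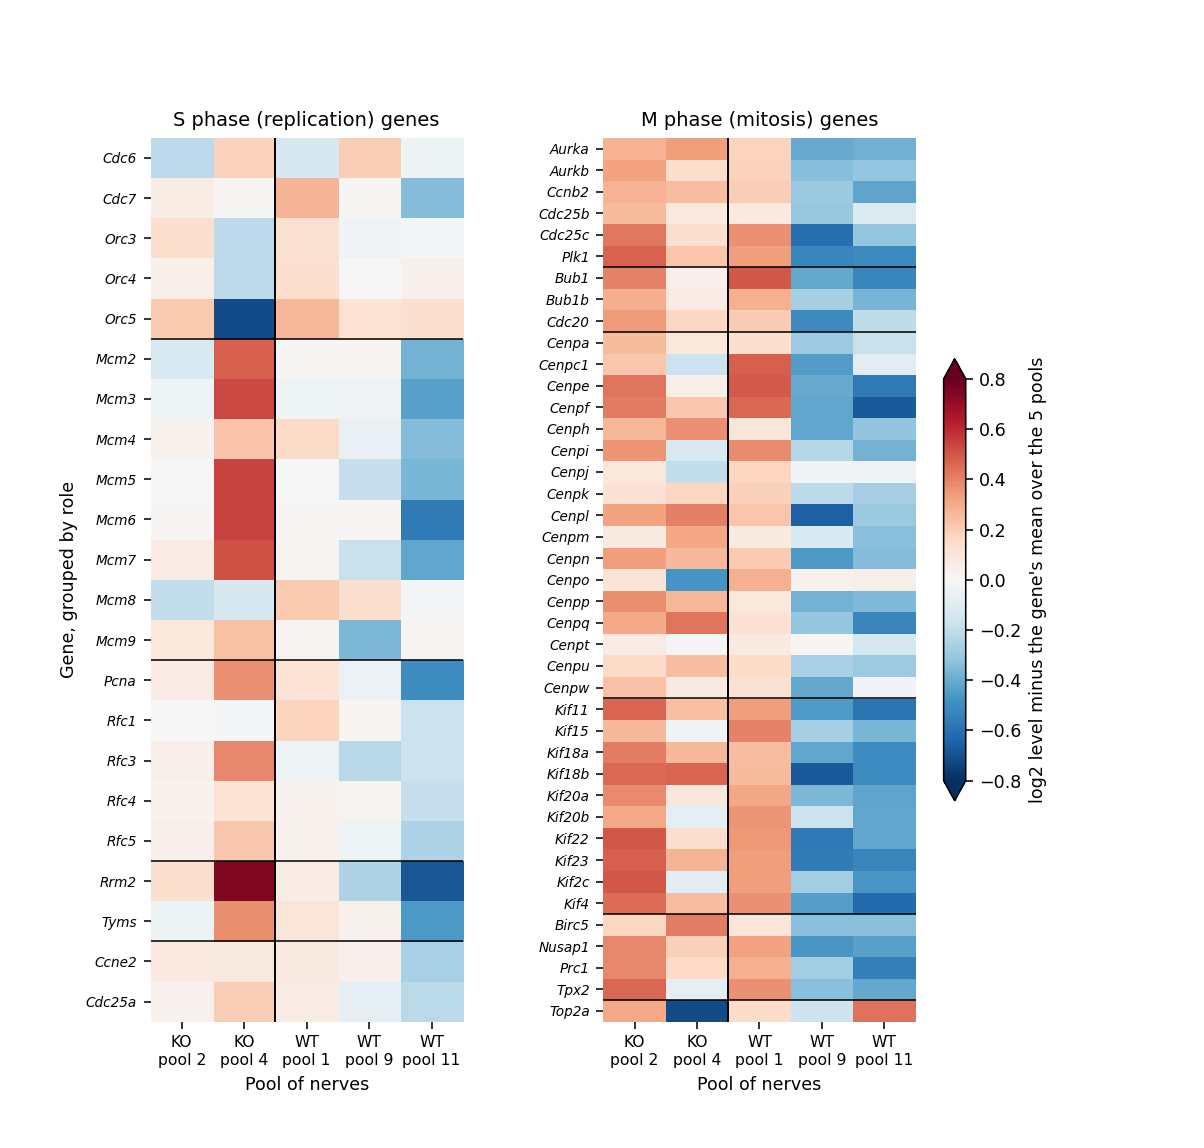
Heat map of the 22 S phase genes (left) and 41 M phase genes (right). Columns are the pools, with KO pools 2 and 4 left of WT pools 1, 9 and 11. Colour gives the log2 level minus the gene's mean over the 5 pools, with red above and blue below it, and horizontal lines separate roles. Most M phase genes are red in KO pool 2 and WT pool 1 and blue in WT pools 9 and 11, whereas Mcm2 to Mcm7 and Rrm2 are reddest in KO pool 4.

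The mitosis genes split the pools across genotype. In 36 of 41 M phase genes WT pools 9 and 11 both lay below the other 3 pools, against 23.2% of all probe sets. The split was not particular to mitosis genes, as 13 of 16 endothelial and 8 of 9 fibroblast markers also had it. WT pool 1 lay above WT pool 9 in 41 of 41 M phase genes, against 48.7% of all probe sets. Averaged over the 41 genes, after subtraction of each gene's mean, the log2 level was 0.32 for KO pool 2 and 0.12 for KO pool 4, against 0.26 in WT pool 1, -0.35 in WT pool 9 and -0.34 in WT pool 11. The median log2 fold change was 0.40 against all WT pools, where the median of all probe sets was -0.002, and -0.01 against WT pool 1 alone. Without WT pool 1 it was 0.62. The same split held in 36 genes after quantile normalisation and in 38 after centring each array on its median.

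Mitotic kinases and cyclins followed this split in all 6 genes. Plk1, which drives entry into mitosis and spindle assembly, was at 11.45 and 11.19 in KO pools 2 and 4, against 11.31, 10.45 and 10.47 in WT pools 1, 9 and 11. The KO pools and WT pool 1 were thus high and WT pools 9 and 11 low, and the genotypes overlapped (log2 fold change 0.58, SE 0.22, limma adjusted p = 0.220). The difference to WT pool 1 alone was 0.01. Cdc25b, a phosphatase that activates the mitotic cyclin-dependent kinase, varied less, with 10.22 and 10.05 in KO pools 2 and 4 and 10.04, 9.66 and 9.86 in WT pools 1, 9 and 11. Its KO pools lay above all WT pools, by a margin of 0.001 at KO pool 4 (log2 fold change 0.28, SE 0.17, adjusted p = 0.481 in limma). Ccnb2 and the Aurora kinase genes Aurka and Aurkb had log2 fold changes of 0.44, 0.51 and 0.39, and Cdc25c was at 0.46.

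In the spindle checkpoint, which holds anaphase until every chromosome is attached, all 3 genes had low values in WT pools 9 and 11. Cdc20, the activator of the anaphase-promoting complex, was at 11.00 and 10.83 in KO pools 2 and 4, against 10.87, 10.16 and 10.46 in WT pools 1, 9 and 11 (log2 fold change 0.42, SE 0.20, limma adjusted p = 0.330). Bub1b, which encodes the checkpoint protein BubR1, was at 10.19 and 9.96 in KO pools 2 and 4, against 10.18, 9.63 and 9.52 in WT pools 1, 9 and 11 (0.30, SE 0.20, limma adjusted p = 0.499). In both genes WT pool 1 lay between the KO pools. Bub1, the kinase of the same checkpoint, had its highest value in WT pool 1 (11.06), with 10.95 and 10.60 in KO pools 2 and 4.

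Of the 17 Cenp genes counted with M phase, 15 had a log2 fold change above 0. Cenpq, a subunit of the constitutive centromere complex, was at 10.60 and 10.72 in KO pools 2 and 4, against 10.41, 9.98 and 9.76 in WT pools 1, 9 and 11. Its KO pools lay above every WT pool (log2 fold change 0.61, SE 0.19, limma adjusted p = 0.136). Cenpf, a large kinetochore protein that accumulates in G2, had the widest spread among the WT pools of the M phase genes. It was at 10.80 and 10.60 in KO pools 2 and 4, against 10.85, 9.97 and 9.71 in WT pools 1, 9 and 11, so WT pool 1 was the highest of the 5 (0.53, SE 0.24, limma adjusted p = 0.316). Cenpc1, for the protein that ties the inner kinetochore to centromeric chromatin, was at 9.72 and 9.32 in KO pools 2 and 4, against 9.97, 9.04 and 9.41 in WT pools 1, 9 and 11 (0.04, SE 0.22, limma adjusted p = 0.923). The split of the pools was absent from Cenpc1, Cenpj, Cenpo and Cenpt among these genes.

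All 10 mitotic kinesins had their lowest 2 values in WT pools 9 and 11. Kif18b, a motor that limits the length of astral microtubules, had the largest log2 fold change of all 66 genes. It was at 10.61 and 10.62 in KO pools 2 and 4, against 10.40, 9.48 and 9.65 in WT pools 1, 9 and 11. Its KO pools lay above all WT pools, though by far less over WT pool 1, where the difference was 0.21 (log2 fold change against all WT pools 0.77, SE 0.22, limma adjusted p = 0.10). Kif15, which backs up Kif11 in keeping the spindle bipolar, was at 9.97 and 9.69 in KO pools 2 and 4, against 10.11, 9.45 and 9.35 in WT pools 1, 9 and 11 (0.20, SE 0.21, limma adjusted p = 0.666). Kif23, a motor of the central spindle used in cytokinesis, and Kif11 had log2 fold changes of 0.63 and 0.59 against all WT pools and 0.04 and 0.02 against WT pool 1.

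Spindle proteins behaved likewise. Nusap1, which bundles spindle microtubules, was at 11.60 and 11.41 in KO pools 2 and 4, against 11.54, 10.75 and 10.78 in WT pools 1, 9 and 11 (log2 fold change 0.48, SE 0.21, limma adjusted p = 0.298). Tpx2, the activator of Aurora A, was at 11.05 and 10.52 in KO pools 2 and 4, against 10.96, 10.26 and 10.18 in WT pools 1, 9 and 11 (0.32, SE 0.22, limma adjusted p = 0.523). WT pool 1 stood between the KO pools in both genes. Top2a, the topoisomerase that untangles sister chromatids, was the lowest of the M phase genes by log2 fold change and the fifth without the split. Its probe set was at 7.64 and 6.62 in KO pools 2 and 4, against 7.48, 7.17 and 7.77 in WT pools 1, 9 and 11, with the highest value in WT pool 11 (-0.35, SE 0.24, limma adjusted p = 0.521). It was also the 1 probe set of the 66 that the annotation ties to no curated RefSeq mRNA.

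Mki67 and Ccna2 lay with the mitosis genes. Mki67 was at 12.53 and 12.66 in KO pools 2 and 4, against 12.49, 11.76 and 11.84 in WT pools 1, 9 and 11 (log2 fold change 0.56, SE 0.20, limma adjusted p = 0.196). Ccna2 was at 12.32 and 12.29 in KO pools 2 and 4, against 12.20, 11.59 and 11.62 in WT pools 1, 9 and 11 (0.50, SE 0.19, limma adjusted p = 0.223). Both had all KO values above all WT values, with WT pool 1 close behind. Cenpv, for centromere protein V, was at 9.92 and 9.86 in KO pools 2 and 4, against 9.84, 9.69 and 9.88 in WT pools 1, 9 and 11.

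**Figure D3:**
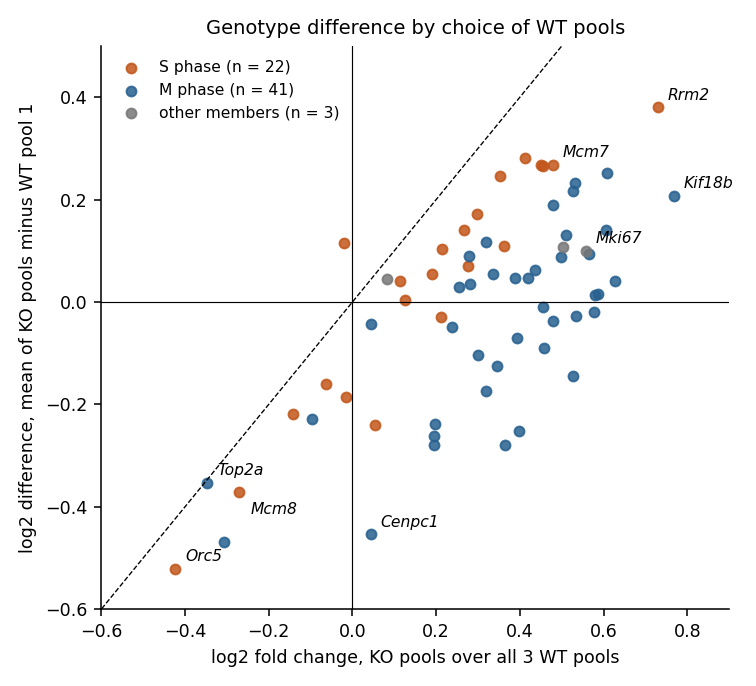
Each point is 1 of the 66 genes, coloured by phase. The horizontal axis is the log2 fold change of the KO pools over all 3 WT pools and the vertical axis the difference of the KO mean to WT pool 1. Both are log2 values, and the dashed line marks equality. Of the M phase genes 38 of 41 lie right of 0 on the horizontal axis, and they lie around 0 on the vertical one, with medians of 0.40 and -0.01, while Rrm2 is highest on the vertical axis at 0.38.

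Among the replication genes KO pool 4 was often the highest and WT pool 11 the lowest. The split of the mitosis genes was also present, with WT pools 9 and 11 both below the other pools in 10 of 22 S phase genes, against 23.2% of all probe sets. KO pool 4 was the highest of the 5 pools in 14 of 22 S phase genes, against 29.1% of all probe sets, and WT pool 11 the lowest in 15 of 22, against 14.3%. The share for KO pool 4 depended on scaling. After median centring it was highest in 16 of 22 S phase and 19 of 41 M phase genes, against 5123 of all 10361 probe sets. With quantile normalisation the counts were 16 and 12, against 3661 of all 10361. In the deposited values, after subtraction of each gene's mean, the S phase genes averaged 0.02 for KO pool 2 and 0.20 for KO pool 4, against 0.08 in WT pool 1, -0.04 in WT pool 9 and -0.26 in WT pool 11. The median log2 fold change was 0.21 against all WT pools and 0.09 against WT pool 1. It was 0.11 without KO pool 4 and 0.11 without WT pool 11, so single pools carried much of it.

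The Mcm2 to Mcm7 helicase showed this most evenly, with KO pool 4 highest and WT pool 11 lowest in 6 of 6 genes. Mcm7 was at 10.86 for KO pool 4 and 10.42 in KO pool 2, against 10.37, 10.18 and 9.94 in WT pools 1, 9 and 11 (log2 fold change 0.48, SE 0.19, limma adjusted p = 0.234). Mcm6 was at 10.42 for KO pool 4 and 9.89 in KO pool 2, against 9.89, 9.89 and 9.32 in WT pools 1, 9 and 11 (0.46, SE 0.20, limma adjusted p = 0.309). Mcm4 was at 10.34 for KO pool 4 and 10.14 in KO pool 2, against 10.27, 10.05 and 9.77 in WT pools 1, 9 and 11 (0.21, SE 0.18, limma adjusted p = 0.609). Both KO pools lay above all WT pools in 1 of the 6 ring genes, Mcm7, against 17.5% of all probe sets. KO pool 2 lay below WT pool 1 in Mcm4, and equalled the highest WT value in Mcm5 and Mcm6. At least 1 pair of arrays had the same value in 3 of the 6 ring genes (Mcm3, Mcm5 and Mcm6), against 27% of all probe sets. Mcm6 carried the identical value in 3 pools. Over the 6 genes the median difference of KO pool 4 to KO pool 2 was 0.53, and 0.60 after quantile normalisation or 0.72 after median centring. For all probe sets it was 0, 0.04 and 0.185 in the same order. Mcm8 and Mcm9, which form a helicase of DNA repair, had log2 fold changes of -0.27 and 0.27, where the ring genes had 0.21 to 0.48. Mcm8 was the 1 gene of the 66 with both KO pools (7.62 and 7.69) below all WT pools (8.03, 7.94 and 7.81 in pools 1, 9 and 11).

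Origin licensing genes were ordered differently from the helicase they load, and 4 of 5 had a log2 fold change below 0. Over all probe sets 49.8% lay above 0. Orc5, a subunit of the origin recognition complex, was at 8.85 for KO pool 4 and 9.78 in KO pool 2, against 9.83, 9.68 and 9.70 in WT pools 1, 9 and 11. A low value in KO pool 4 thus made up the difference (log2 fold change -0.42, SE 0.21, limma adjusted p = 0.373). Cdc6, the loader, was at 7.95 for KO pool 4 and 7.56 in KO pool 2, against 7.64, 7.96 and 7.72 in WT pools 1, 9 and 11, a difference of -0.02 (SE 0.18, limma adjusted p = 0.956). Its sign depended on scaling, with 0.04 after median centring and 0.05 after quantile normalisation. Orc3 and Orc4 were also lowest in KO pool 4, at 10.70 and 9.95, the array with the lowest median (8.93). The Orc3 log2 fold change was -0.06 as deposited, -0.004 after median centring and -0.11 after quantile normalisation. Cdc7, the kinase that fires the loaded origins, was highest in WT pool 1 (9.00).

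The sliding clamp and its loader leaned towards the helicase pattern. Pcna was at 13.01 for KO pool 4 and 12.71 in KO pool 2, against 12.76, 12.60 and 12.15 in WT pools 1, 9 and 11 (log2 fold change 0.36, SE 0.19, limma adjusted p = 0.399). Rfc1, the large subunit of the clamp loader, was at 9.94 for KO pool 4 and 9.96 in KO pool 2, against 10.13, 9.97 and 9.78 in WT pools 1, 9 and 11 (-0.02, SE 0.17, limma adjusted p = 0.968). KO pool 4 was highest for Pcna and for the loader subunits Rfc3, Rfc4 and Rfc5, but not for Rfc1.

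Among the enzymes of nucleotide supply, Rrm2, the regulated subunit of ribonucleotide reductase, had the largest log2 fold change of the S phase genes. It was at 10.71 for KO pool 4 and 10.09 in KO pool 2, against 10.02, 9.71 and 9.28 in WT pools 1, 9 and 11. All KO values exceeded all WT values (0.73, SE 0.21, limma adjusted p = 0.111), by 0.38 on average over WT pool 1. Rrm2 also had the widest range among the WT pools of the S phase genes, 0.74. Tyms, thymidylate synthase, was at 10.07 for KO pool 4 and 9.65 in KO pool 2, against 9.79, 9.73 and 9.24 in WT pools 1, 9 and 11, so the genotypes overlapped (0.28, SE 0.20, limma adjusted p = 0.533). Of the regulators of S phase entry, Cdc25a was at 9.89 for KO pool 4 and 9.72 in KO pool 2, against 9.75, 9.62 and 9.48 in WT pools 1, 9 and 11. Ccne2, for cyclin E2, was at 9.68 for KO pool 4 and 9.69 in KO pool 2, against 9.68, 9.65 and 9.35 in WT pools 1, 9 and 11. Only WT pool 11 stood apart in Ccne2.

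The difference between S and M phase genes varied among the pools of each genotype. The S phase mean minus the M phase mean, each gene centred on its own mean, was 0.08 for KO pool 4 and -0.30 in KO pool 2, against -0.18, 0.31 and 0.09 in WT pools 1, 9 and 11. The difference thus spanned 0 in both genotypes, averaging -0.11 ± 0.27 (SD, n = 2) in KO and 0.07 ± 0.25 (SD, n = 3) in WT. The genotype difference of -0.18 was smaller than either spread, was 0.01 without KO pool 2, and was 0.08 against WT pool 1 alone. It was -0.37 without KO pool 4, -0.31 without WT pool 1 and -0.06 without WT pool 9. Centring the arrays shifts both sets alike and leaves it as it is.

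KO pool 4 exceeded KO pool 2 in 16 of 22 S phase genes, against 49.3% of all probe sets, and lay below it in 32 of 41 M phase genes, against 48.1%. KO pool 4 lay below WT pool 1 in 6 of 22 S phase and 28 of 41 M phase genes, against 46.2% of all probe sets, and above it in 16 and 13, against 51.3%. The median difference of KO pool 4 minus KO pool 2 was 0.19 for the S phase genes and -0.20 for the M phase genes. The array of KO pool 4 had a lower median (8.93) than that of KO pool 2 (9.11), and the M phase side depended on scaling. After median centring the medians were 0.38 for S and -0.02 for M, against 0.185 for all probe sets. In 22 of 41 M phase genes KO pool 4 was then lower. After quantile normalisation the medians were 0.29 and -0.12, against 0.04 for all probe sets. For KO pool 4 minus WT pool 1 the M phase median was -0.095 as deposited, 0.083 after centring and -0.059 after quantile normalisation. All probe sets were at 0.018, 0.196 and 0.052 there. With WT pool 1 minus the mean of WT pools 9 and 11, the medians were 0.19 for the S phase genes and 0.65 for the M phase genes. No test was made of these differences, since each rests on 1 or 2 arrays a side.

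**Figure D4:**
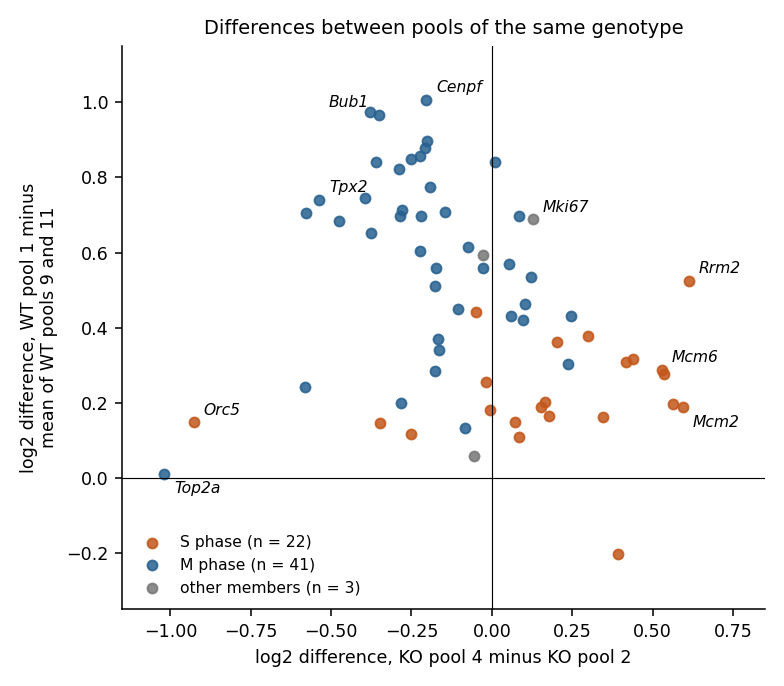
Each point is 1 of the 66 genes, coloured by phase. The horizontal axis is the log2 difference of KO pool 4 minus KO pool 2 and the vertical axis that of WT pool 1 minus the mean of WT pools 9 and 11. M phase genes lie high and mostly left of 0, with medians of 0.65 and -0.20, and S phase genes lie low and mostly right of 0, with medians of 0.19 and 0.19.

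Markers of other tissues moved with the same pools. Of 16 keratinocyte genes 15 were measured, with mean log2 levels of 7.39 and 7.67 in KO pools 2 and 4, against 7.33, 9.20 and 8.56 in WT pools 1, 9 and 11. All 25 skeletal muscle genes were measured, at 9.97 and 10.14 in KO pools 2 and 4, against 9.48, 11.00 and 10.80 in WT pools 1, 9 and 11. WT pools 9 and 11, where the M phase genes were lowest, were therefore highest for skin and muscle genes, and the part of these tissues in the M phase difference was not tested. The 16 endothelial genes averaged 10.38 and 10.13 in KO pools 2 and 4, against 10.18, 9.85 and 9.80 in WT pools 1, 9 and 11. As in the M phase genes, WT pools 9 and 11 were both below the other pools in 13 of the 16. Their median log2 fold change was 0.385. Schwann cell markers, of which 8 of 14 were measured, averaged 10.95 for KO pool 4 and 11.37 in KO pool 2, against 11.59, 11.81 and 11.55 in WT pools 1, 9 and 11, and Egr2 and Mag among them were called lower in KO. Their low point in KO pool 4, where the Mcm genes were highest, was likewise not tested for its part in the result. Fibroblast markers (9 of 14 measured) averaged 11.84 and 11.84 in KO pools 2 and 4, against 11.69, 11.46 and 11.50 in WT pools 1, 9 and 11, and macrophage markers (5 of 14 measured) 9.41 and 9.16 in KO pools 2 and 4, against 9.40, 9.35 and 9.27. WT pools 9 and 11 were both below the other pools in 8 of the 9 fibroblast and 2 of the 5 macrophage markers. This was so for 0 of the Schwann cell, keratinocyte and muscle markers.

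**Figure D5:**
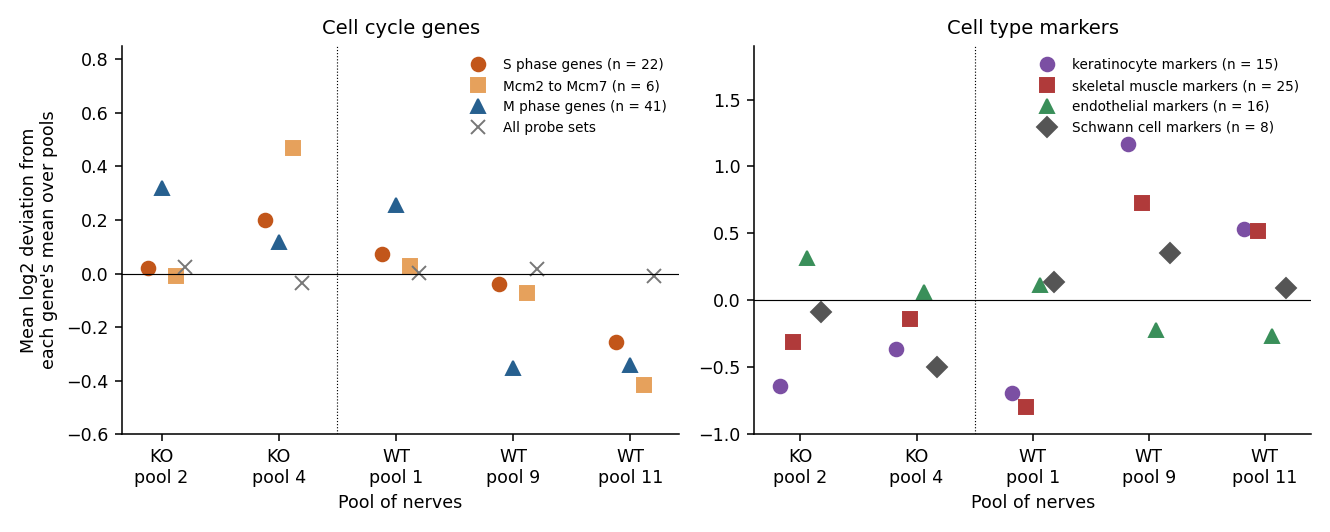
Mean log2 deviation from each gene's own mean over the 5 pools, by pool, with KO pools 2 and 4 left of WT pools 1, 9 and 11. The left panel shows S phase genes, Mcm2 to Mcm7, M phase genes and all probe sets, and the right panel markers of 4 cell types on a wider axis. M phase genes are at -0.35 and -0.34 in WT pools 9 and 11, where keratinocyte markers are at 1.17 and 0.53, and Mcm2 to Mcm7 reach 0.47 in KO pool 4.

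Genes of the same processes outside the name rule were ordered over the pools in a similar way. Of 51 other replication genes 37 were measured, 35 lay higher in KO, 0 were called in either direction by limma and 11 were at unadjusted p below 0.05. Over all probe sets 49.8% lay higher in KO, and 1483 of 10361 were at unadjusted p below 0.05 in limma. In the values as deposited, KO pool 4 was highest in 26 of the 37, against 29.1% of all probe sets. WT pools 9 and 11 were both below the other pools in 26 as well, Ticrr and Dbf4 among them, against 23.2%. The median log2 fold change of the 37 was 0.34, or 0.11 against WT pool 1. The largest were Ticrr, an activator of origin firing (0.77, SE 0.21), and Dbf4, the partner of Cdc7 (0.74, SE 0.21), and the lowest Rpa3, a subunit of the single-strand binding protein (-0.33, SE 0.18), and Gen1, a resolvase (-0.14, SE 0.26). Of 64 other mitosis genes 61 were measured, 61 lay higher in KO, 0 were called by limma and 34 were at unadjusted p below 0.05, beside the same values for all probe sets. WT pools 9 and 11 were both below the other pools in 56 of these 61, and their median was 0.44, or 0.01 against WT pool 1. Sgo1, which protects centromeric cohesion, and Hmmr, a spindle protein, led with 0.79 and 0.78 (SE 0.21 and 0.23). The lowest were Kntc1 and Ska2, at 0.009 and 0.013 (SE 0.18 each). The promoter motifs recurred in both lists, with E2F in 13 of 29 other replication genes with a window (44.8%) and the CHR in 34 of 49 other mitosis genes (69.4%).

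Other regulators of the cycle were divided in direction, near the share of all probe sets. Their list of 24 held G1 cyclins, cyclin-dependent kinases and E2F genes, and also Tfdp2, Myc, Mycn, Skp2, Lin9, Lin37, Lin52 and Lin54. Of the 24 genes 18 were measured, and 10 lay higher and 8 lower in KO, where 49.8% of all probe sets lay higher. In limma 0 were called and 5 were at unadjusted p below 0.05, as were 1483 of all 10361 probe sets. E2f8, an E2F that represses its targets and is itself made in S phase, was at 10.51 for KO pool 4 and 9.86 in KO pool 2, against 9.71, 8.99 and 9.06 in WT pools 1, 9 and 11 (log2 fold change 0.93, SE 0.22, limma adjusted p = 0.0523). Its relative E2f7 was at 0.64 (SE 0.20), with KO pool 4 highest at 10.52. Both E2f7 and E2f8 had all KO values above all WT values. The D cyclins, which carry growth signals into the cycle, lay on the other side, with log2 fold changes of -0.22 for Ccnd1, -0.23 for Ccnd2 and -0.21 for Ccnd3 (SE 0.17 each), and Mycn was the lowest of this list (-0.44, SE 0.17).

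Of 19 cell cycle inhibitors 14 were measured, 7 lay higher and 7 lower, and 0 were called by limma, with 3 at unadjusted p below 0.05. Over all probe sets 49.8% lay higher, and 1483 of 10361 were at unadjusted p below 0.05 in limma. Cdkn2b, an inhibitor of Cdk4 and Cdk6, was at 8.15 and 8.54 in KO pools 2 and 4, against 8.80, 8.94 and 8.87 in WT pools 1, 9 and 11, with all KO values below all WT values (log2 fold change -0.52, SE 0.17, limma adjusted p = 0.162). Cdkn1b, for p27, was at 9.81 and 9.52 in KO pools 2 and 4, against 9.81, 10.02 and 10.29 in WT pools 1, 9 and 11 (-0.37, SE 0.18, limma adjusted p = 0.357). Cdkn1c and Cdkn2c were at -0.12 and 0.27 (SE 0.17 each). Wee1, the kinase that delays entry into mitosis, and Ccng2, a cyclin tied to cell cycle arrest, had the largest positive values, 0.53 and 0.48 (SE 0.18 each).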

How the data were processed

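Total RNA from 5 pools of nerves was measured on 1 Affymetrix whole-transcript array each. Per the submitters' processing notes the authors used RMA, of unstated version, and deposited its log2 levels. They spanned 2.84 to 14.3. In every probe set the fourth-ranked value exceeded the lowest by at least 0.175, so genes with less spread than this are not analysed here. Gene symbols come from GEO's platform annotation of 2016 (9411 with 1 symbol, 384 with several and left unnamed, 566 unlisted), and all 66 genes matched RefSeq by gene identifier.

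The genotypes were compared on the values as deposited with limma 3.58.1 (lmFit and eBayes) in R 4.3.3, KO minus WT, two-sided, with Benjamini-Hochberg adjustment over all 10361 probe sets. It had 3 residual degrees of freedom, plus 17.4 from the prior, and was tested on simulated data. The number of arrays, 2 against 3, limits precision. Labels do not say whether pools share litters.

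The members, the phase and role of each, and all lists were chosen with earlier results of these data known. Values in every pool are given for the genes of each role with the largest and smallest log2 fold change, those with the widest pool differences, and 5 fixed genes; for other lists the 2 extremes in each direction and all measured D cyclins and Cdkn genes are named. Bub1, Mcm6, E2f7 and others outside this rule were chosen after their values were seen. Alternatives were scaling, prior, filter, left-out pools, WT pool 1 as the only control, 1 probe set per gene, a core membership and a shorter promoter window.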

Additional observations from a re-analysis of the deposited data

How the results depend on the processing

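With 2 KO and 3 WT arrays and differences of under 1 on the log2 scale, calls depended on the variance prior. Of the 66 genes, 13 were called with a trended, robust prior (5.54% of all probe sets) and 3 of the 50 fitted with probe sets above the 50th percentile (5.54%), against 0 in the fit reported and 0 in the other 11 alternatives. Of the 130 genes of the 4 other cell cycle lists, 30 were called with the trended, robust prior, 15 of 95 fitted with the level filter and 3 with 1 probe set per gene (1.73% of all), against 0. The median of the M phase genes was -0.011 against WT pool 1 alone and -0.010 with WT pools 9 and 11 as a block, where the mean S minus M difference between genotypes was 0.075 in both. Leaving out each pool in turn gave 0.294 to 0.622 for the M phase median, 0.110 to 0.308 for the S phase median, -0.370 to 0.011 for S minus M, and 0 calls each time. Core members alone gave medians of 0.30 for S and 0.44 for M. Against WT pool 1 alone 21 of the 66 genes changed sign. In the window of 100 bases before to 50 after the start, E2F stood in 35.0% of S phase genes and the CHR in 56.8% of M phase genes. No paired analysis was possible because the labels do not pair pools across the genotypes.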
